A study of Oryza sativa Japonica Group with 9 samples.

Results

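Chromatin precipitated with an antibody against OsbZIP23 gave 4260 listed peaks in wild-type rice seedlings under drought. Of these, 1459, or 34.2% (95% exact binomial interval 32.8–35.7), overlapped no peak of either comparison list by 1 bp or more. These 1459 regions, found only in the drought list, are described here. They were chosen by the start and end positions of peaks alone, as ZH11 drought peaks that overlapped no ZH11 normal peak (1738 peaks). They also overlapped no peak of the overexpressor under normal growth (11611 peaks). The lists held 17609 peaks in all. Because the choice rests on which peaks were called in the drought library and not in the others, the height, score and length of the peaks are given as a description, with no test.

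OsbZIP23 belongs to the ABF group of basic leucine zipper factors. In this pathway the hormone abscisic acid builds up in drying tissue, its receptors hold clade A phosphatases back, SnRK2 kinases become active, and the kinases phosphorylate ABF-type factors. These factors bind abscisic acid response elements in DNA, and in rice OsbZIP23 is known for raising drought and salt tolerance when overexpressed.

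The 3 chromatin libraries came from above-ground parts of seedlings at the 4-leaf stage. The first was wild-type Zhonghua 11 (ZH11), a japonica cultivar, left without water until all leaves had rolled. The comparison libraries were a line overexpressing OsbZIP23, unstressed, and ZH11, unstressed and harvested at the same time as the stressed plants. About 3 g of seedlings per sample was fixed in 1% formaldehyde, the chromatin was sheared to 100 to 500 bp, and all 3 samples were precipitated with a rabbit polyclonal antibody against OsbZIP23. The promoter of the overexpression line is not given in the sources used here, and no overexpressor library under drought entered the binding assay. Each group had 1 library, so that no difference between groups has a replicate check. Peaks were called with no control library, so the lists alone cannot separate OsbZIP23 binding from other sources of tags.

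The drought library was the deepest. After removal of repeated positions the peak caller used 7136789 tags for ZH11 drought, 6050680 for the overexpressor and 6153810 for ZH11 normal. Repeated tags made up 28% of the ZH11 drought library, 13% of the overexpressor library and 21% of the ZH11 normal library. Transcripts of OsbZIP23 itself (LOC_Os02g52780) had 5606 reads or 414.6 CPM (reads scaled to library size) in the ZH11 drought RNA library, 1480 CPM in overexpressor normal and 36.1 CPM in ZH11 normal. The ZH11 drought level was 11.5-fold that of ZH11 normal (95% interval 10.4–12.7, counting error only), and the overexpressor level was 3.57-fold that of ZH11 drought (3.46–3.68). Of the shoot markers looked at, 4 genes of photosynthesis ran from 6.92 to 831 FPKM (reads per length and library size) in ZH11 drought and from 1109 to 10353 FPKM in ZH11 normal. The root silicon transporter Lsi1 had 5.54 FPKM in ZH11 drought and 7.12 FPKM in ZH11 normal, and Lsi2, the other root transporter, had 0 reads in both.

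Most drought peaks outside the 1459 overlapped the overexpressor list. There, 2049 overlapped a peak of the overexpressor alone, 460 overlapped both lists and 292 overlapped ZH11 normal alone. The 1459 peaks covered 1.87 Mb in all, against 4.73 Mb for the 2801 drought peaks that overlapped another list.

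Peaks found only in ZH11 drought were mostly weak by the authors' own values. The score of a peak is the negative log10 of its p value times 10, and the authors' cutoff of 1e-05 puts the lowest possible score at 50. The median score was 59.7 in the drought-only peaks and 72.8 in the overlapping drought peaks. Of the drought-only peaks, 742 (50.9%) had a score under 60 and 65 had a score of 100 or more. Of the overlapping drought peaks 26.3% had a score under 60. Read the other way, 50.2% (47.6–52.8) of drought peaks with a score of 50 to 60 were found only in ZH11 drought, and so were 37.2% (34.7–39.8) at 60 to 80, 20.3% (17.0–23.9) at 80 to 100, 11.5% (8.85–14.6) at 100 to 150 and 2.25% (0.829–4.83) at 150 or more. The share fell at each step of the score, and the highest score of any drought-only peak was 196.4, against 3100 among the overlapping drought peaks.

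**Figure D1:**
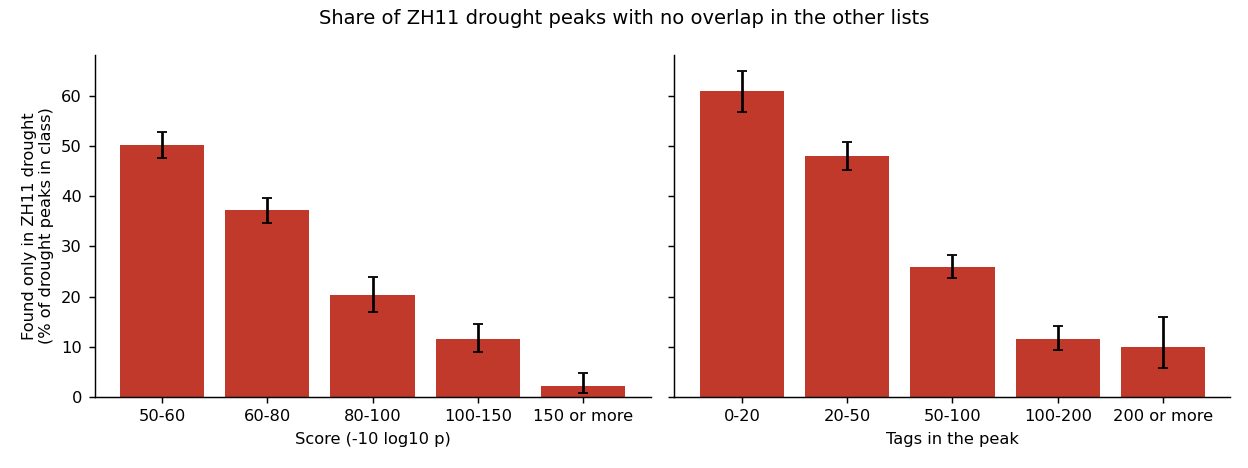
Share of ZH11 drought peaks found in no other list (y axis, percent) in classes of score (left) and of tags per peak (right), the upper bound of each class not included. Bars are shares and whiskers 95% exact binomial intervals; the share is 50.2% in the lowest score class and 2.25% in the highest, and 61.0% in the lowest tag class and 9.93% in the highest.

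Tag numbers followed the same order. A peak found only in ZH11 drought held a median of 37 tags, with quartiles of 20 and 59.5, while an overlapping drought peak held a median of 70, with quartiles of 42 and 107. Among drought peaks with under 20 tags, 61.0% (56.9–65.0) were found in no other list, and among those with 200 tags or more 9.93% (5.67–15.9), which is 15 of 151. The lowest count in any of the 3 lists was 7 tags. A peak missing from a list is a peak that was not called there, and the tags of the other libraries at the 1459 regions were not analysed here.

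The regions were also shorter. Their median length was 1073 bp, from 187 to 6439 bp, against 1470 bp, from 150 to 6970 bp, in the overlapping drought peaks. Of the drought-only peaks 262 (18.0%) were under 500 bp and 64 (4.39%) were 3000 bp or longer, while 7.28% of the overlapping peaks were under 500 bp and 11.2% were 3000 bp or longer. Length and tags went together in both sets, with a Spearman rho of 0.94 across the 1459 drought-only peaks and 0.88 across the 2801 others. These are correlations across peaks of 1 library, in which a longer peak has more room for tags. Length also bears on membership, since a longer peak has more room to overlap a peak of another list. The drought-only share was 56.2% of drought peaks under 500 bp and 16.9% of those of 3000 bp or longer. The part of the overlap rule in the differences in length and tags was not tested.

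Tags per kb take that length away. The drought-only peaks had a median of 31.5 tags per kb, and the overlapping drought peaks 47.0. The ZH11 drought library averaged 19.1 tags per kb over the 374 Mb spanned by peaks, so the medians were 1.65 and 2.46 times that average. Peaks shared with ZH11 normal alone were nearest to the drought-only peaks on this scale, at 1.52 times the average. Peaks shared with the overexpressor alone were at 2.56 times and peaks in all 3 lists at 2.34 times. Density over 2 times the average was reached by 24.3% of drought-only peaks, 83.0% of peaks shared with the overexpressor alone and 13.7% of peaks shared with ZH11 normal alone. Peaks found only in another list had medians of 3.26 times the average of their own library in the overexpressor and 1.59 times in ZH11 normal.

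Fold enrichment, the authors' ratio of tags at the summit to the local background, set the groups less far apart. Its median was 5.87 in drought-only peaks, with quartiles of 4.77 and 8.09, and 6.51 in overlapping drought peaks, with quartiles of 5.26 and 8.33. By partner, the median was 6.23 for peaks shared with the overexpressor alone, 7.10 for those shared with ZH11 normal alone and 8.59 for those in all 3 lists. Unlike score and tags, fold enrichment gave no steady fall in the share of drought-only peaks, which was 45.5% (42.4–48.7) under 5, 28.7% (27.0–30.5) from 5 to 10, 41.0% (36.8–45.3) from 10 to 20 and 27.4% (19.5–36.6) at 20 or more.

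Within the drought-only peaks, fold enrichment ran against length (Spearman rho -0.76, n = 1459 peaks). All peaks had passed the same p-value limit, which bears on both tags and fold enrichment. Its part in this relation was not tested. The 262 peaks under 500 bp had a median of 10 tags and a median fold enrichment of 12.7, and the 64 peaks of 3000 bp or longer had a median of 133.5 tags and a median fold enrichment of 4.47. The median score hardly differed between these 2 classes, at 60.4 and 61.3. The overlapping drought peaks showed a weaker relation, with a rho of -0.47. A ranking by tags and a ranking by fold enrichment therefore named different peaks, and none of the 10 drought-only peaks with the most tags was among the 10 with the highest fold enrichment.

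**Figure D2:**
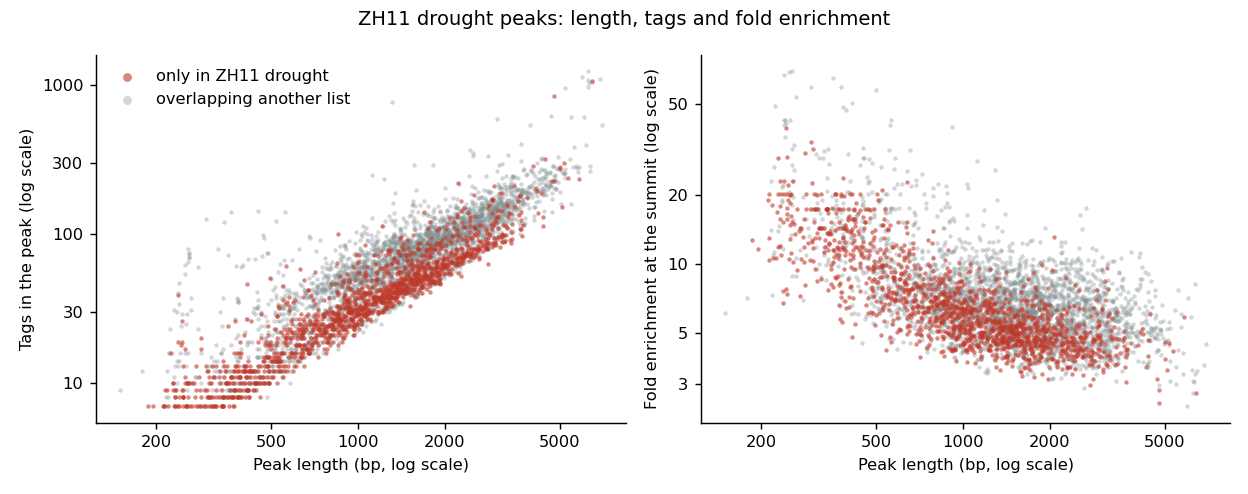
Each point is 1 ZH11 drought peak, placed by its length (x axis, bp, log scale) and its tags (left) or its fold enrichment (right), both on log scales. Most of the 1459 drought-only peaks lie toward the lower edge of the tags at a given length, and their highest fold enrichments belong to the shortest peaks.

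The drought-only peak with the most tags was a region of 6439 bp on chromosome 12, chr12:20540478-20546916 in the coordinates of the authors' list, with 1070 tags, a score of 116.1 and a fold enrichment of 2.74. The next, chr4:32883085-32887847, had 854 tags and a fold enrichment of 2.48. Both stood far above the third, and both were long, dense peaks with a low ratio to their surroundings. At chr5:26708887-26713316 there were 322 tags with a fold enrichment of 6.07. A peak of the overexpressor, with 112 tags and a score of 86.5, ended 122 bp before it. On chromosome 3, chr3:11930848-11936010 had 301 tags and chr3:11983124-11987152 had 285 tags, the second of them with a score of 128.66 and a fold enrichment of 4.46. The other 5 of the top 10 lay on chromosomes 2, 11 and 5 and held 228 to 284 tags. The lengths of all 10 lay between 4029 and 6439 bp.

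By fold enrichment the first region was chr4:9154121-9154364, a peak of 244 bp with 18 tags, a fold enrichment of 39.3 and a score of 195.2. It was also the second highest of all drought-only peaks by score. The next was chr8:12541051-12541348, with 13 tags and a fold enrichment of 33.9. A peak at chr5:29875078-29875379 had 12 tags and a fold enrichment of 31.8, and chr12:20679575-20679859 had 17 tags, a fold enrichment of 30.5 and a score of 152.5. The remaining 6 of the top 10 held 8 to 13 tags each, and the lengths of all 10 lay between 229 and 384 bp. The highest score of all, 196.4, belonged to chr12:7596087-7596583, a region of 497 bp with 51 tags and a fold enrichment of 9.59.

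Some of the high fold enrichments took a few repeated values. The headers give 7136789 tags, a fragment length of 131 bp and a genome size of 2.7 Gb, which together give 0.346 tags expected per fragment length, or steps of 2.89 in fold enrichment for each whole tag. Of the 31 drought-only peaks with a fold enrichment of 20 or more, 21 were within 0.01 of a whole number of such steps. Of these, 16 were at 20.2 (7 steps), 3 at 23.1 (8 steps), 1 at 28.9 (10 steps) and 1 at 31.8 (11 steps). Those at 23.1, 28.9 and 31.8 are all in the top 10 by fold enrichment, the last being chr5:29875078-29875379. A value on a step matches a whole number of tags over the genome-wide expectation. Among overlapping drought peaks with a fold enrichment of 20 or more, 17 of 82 were on a step. Counted over the 374 Mb spanned by the peaks in place of 2.7 Gb, the same tags give 2.50 expected per fragment length. The genome size stated in the headers is 7.22 times the span, and a fold enrichment on one of these steps scales with it.

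Along the genome, drought-only peaks were found on every chromosome. The 12 numbered chromosomes held 1450 of them, 3.89 per Mb, and the sequences named ChrSy and ChrUn in the lists held the other 9. Chromosome 6 had the most per Mb (4.94), followed by chromosome 4 (4.82) and chromosome 12 (4.65). Chromosome 2 (2.90 per Mb) and chromosome 3 (2.92 per Mb) had the fewest. As a share of each chromosome's drought peaks, drought-only peaks made up 44.4% (38.5–50.5) on chromosome 8 and 42.1% (36.5–47.9) on chromosome 12, against 25% (20.9–29.4) on chromosome 3 and 25.8% (22.2–29.6) on chromosome 1. Chromosomes 1 and 3 had the most overexpressor peaks per Mb, at 39.9 and 39.3, and chromosomes 12 and 11 the fewest, at 23.1 and 23.3. The orders were not the same throughout. Chromosome 11 had a drought-only share of 36.6%, below the 39.4% of chromosome 4, which had 29.4 overexpressor peaks per Mb. The overlap rule ties the drought-only share to the overexpressor list, and a relation by chromosome was not tested.

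**Figure D3:**
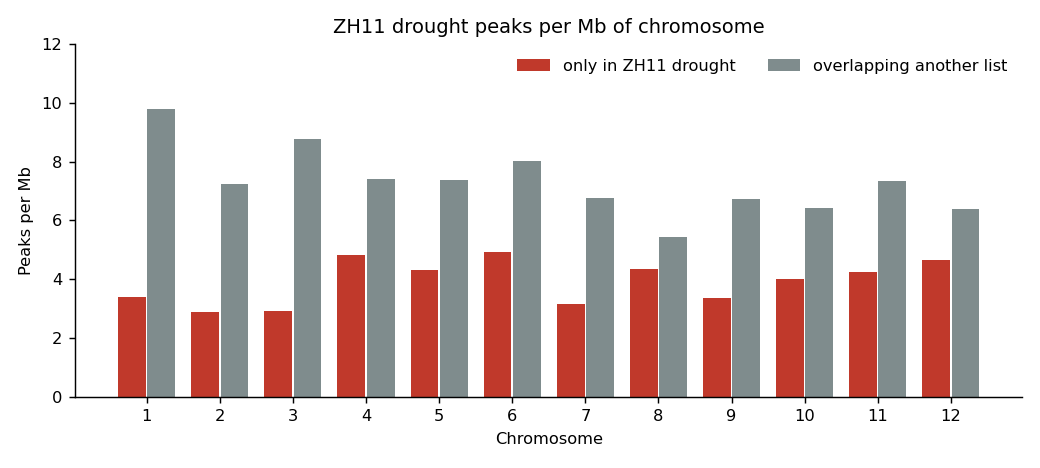
ZH11 drought peaks per Mb (y axis) on each numbered chromosome (x axis), drought-only peaks at the left of each pair and peaks overlapping another list at the right. Drought-only peaks run from 2.90 per Mb on chromosome 2 to 4.94 per Mb on chromosome 6, and the overlapping peaks from 5.45 on chromosome 8 to 9.78 on chromosome 1.

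Set against all overlapping drought peaks together, the drought-only peaks lay more often in the second and the middle of 5 equal parts of the chromosomes. They lay less often in the last 2 parts. Rice chromosomes carry gene-rich outer arms and repeat-rich heterochromatin around the centromere, which is off centre on several of them. With the parts counted from the low-numbered end, the middle part held 22.1% (20.02–24.36) of drought-only peaks and 15.6% (14.3–17.0) of overlapping drought peaks. The second part held 24.2% (22.0–26.5) of drought-only peaks and 17.9% (16.5–19.4) of overlapping ones. The first part held 19.2% (17.2–21.4) and 18.3% (16.9–19.8), with intervals that overlap. The fourth part, the other inner one, held 18.5% (16.5–20.6) of drought-only peaks and 23.3% (21.8–24.9) of the overlapping ones. The last part held 15.9% (14.1–17.9) of drought-only peaks and 24.8% (23.2–26.5) of the overlapping ones. These intervals cover counting error of 1 library only, and the difference was not tested. The share in the middle part was higher for the drought-only peaks on 10 of 12 chromosomes, chromosomes 10 and 11 being the exceptions. This count uses the overlap that defines the sets, so it is a description and supports nothing further. The widest gaps were on chromosome 8 (30.6% against 15.5%), chromosome 3 (29.2% against 14.5%) and chromosome 6 (29.9% against 16.4%).

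The profile differed with the partner of an overlapping peak. Drought peaks shared with ZH11 normal alone had 23.9% (19.1–29.2) in the middle part and peaks in all 3 lists 22.9% (19.1–27.1), both close to the drought-only peaks. In the same order, the second part held 30.4% and 24.7%, the fourth 15.6% and 16.4%, and the last 14.5% and 18.7%. Peaks shared with the overexpressor alone, 2049 of the 2801 overlapping peaks, had 12.9% (11.4–14.4) in the middle part. They had 14.6% in the second, 25.9% in the fourth and 27.6% in the last. The overexpressor list as a whole had 14.4% (13.7–15.0) in the middle part, or 22.3 peaks per Mb there and 42.0 per Mb in the last. The ZH11 normal list had 21.5% (19.6–23.5) in the middle part. The rule leaves out every drought peak that meets an overexpressor peak, so the density of the overexpressor list bears directly on where drought-only peaks can remain; its part in the difference was not tested. When the overexpressor list was not used, 3508 drought peaks overlapped no ZH11 normal peak, and 16.7% of these lay in the middle part, against 23.3% of the drought peaks that did overlap one.

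The values by score, length and tags were as follows, and no difference between these classes was tested. In drought-only peaks with a score under 60 the middle part had 23.6% (20.6–26.8), against 14.4% (11.9–17.1) in overlapping drought peaks under 60. Among peaks over 1000 bp it had 20.2% (17.4–23.1) of the drought-only and 13.3% (11.9–14.9) of the overlapping ones. Of the 65 drought-only peaks with a score of 100 or more, 12.3% (5.47–22.8) lay in the middle part, against 17.5% of the 716 overlapping drought peaks of that score. The last part held 29.2% (18.6–41.8) of those 65.

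**Figure D4:**
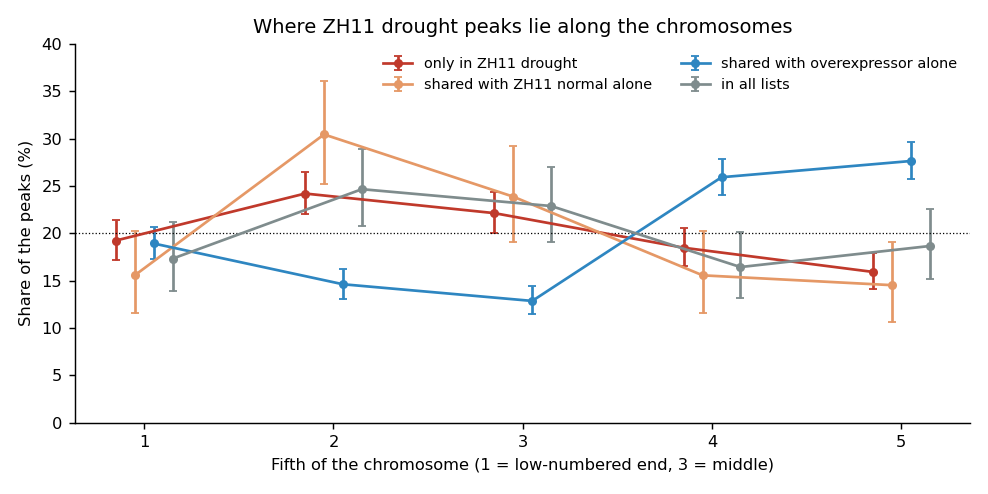
Share of each set of ZH11 drought peaks (y axis, percent) in each of 5 equal parts of the numbered chromosomes (x axis, from the low-numbered end), with 95% exact binomial intervals; the dotted line marks an even spread. Drought-only peaks have 22.1% in the middle part, close to the peaks shared with ZH11 normal alone (23.9%), and peaks shared with the overexpressor alone have 12.9%.

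In windows of 1 Mb the drought-only peaks numbered from 0 to 15, with a median of 3, and 17 of 378 windows had 0. The fullest window was 13 to 14 Mb on chromosome 12, between positions 13000001 and 14000000, where 15 of 23 drought peaks were drought-only. The windows starting at 10000001 on chromosome 5, 18000001 on chromosome 3 and 9000001 on chromosome 4 held 13 each. They had 19, 21 and 21 drought peaks in the same order. The drought-only share was 68.4% in the chromosome 5 window and 65.2% in the fullest window. When the windows were ordered by their number of overexpressor peaks, the 94 windows with the fewest (5 to 19 each) held 501 drought-only peaks and 437 overlapping drought peaks. The 95 windows with the most (42 to 63 each) held 270 drought-only and 1031 overlapping drought peaks. Across windows, the number of drought-only peaks had a Spearman rho of -0.30 with the number of overexpressor peaks, and the number of overlapping drought peaks a rho of 0.62 (n = 378 windows). The windows share 1 library per list. Both relations, and the counts by window above, use the overlap that defines the sets, since a drought peak that meets an overexpressor peak is by rule not drought-only, so they are a description and support nothing further.

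The densest run within 100 kb lay inside the fullest window, at chr12:13312763-13411634. It held 8 drought-only peaks in 98.9 kb, with 27 to 221 tags and fold enrichments of 3.81 to 7.57. In the same stretch there were 6 other drought peaks, 5 overexpressor peaks and 5 ZH11 normal peaks. The next densest run, on another chromosome, held 6. Over all, a drought-only peak had a median of 69.6 kb to the next drought-only peak and 22.2 kb to the next drought peak of any kind. For overlapping drought peaks that last distance was 22.1 kb. A drought peak within 1000 bp was found beside 82 drought-only peaks (5.62%) and beside 180 overlapping ones (6.43%).

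The gap from a drought-only peak to the nearest peak of either list had a median of 10.8 kb, with quartiles of 4.66 and 22.5 kb and a maximum of 259 kb, and 704 (48.3%) had such a peak within 10 kb. This median was shorter than the 22.2 kb to the next drought peak, and the other lists together hold more peaks than the drought list. It was at most 500 bp for 98 peaks (6.72%) and at most 2000 bp for 204 (14.0%), so 1255 had no peak of another list within 2000 bp. The overexpressor list held the nearer peak for 1036 and the ZH11 normal list for 423. The median gap was 14.4 kb to the overexpressor list and 55.8 kb to ZH11 normal, the shorter of these lists.

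**Figure D5:**
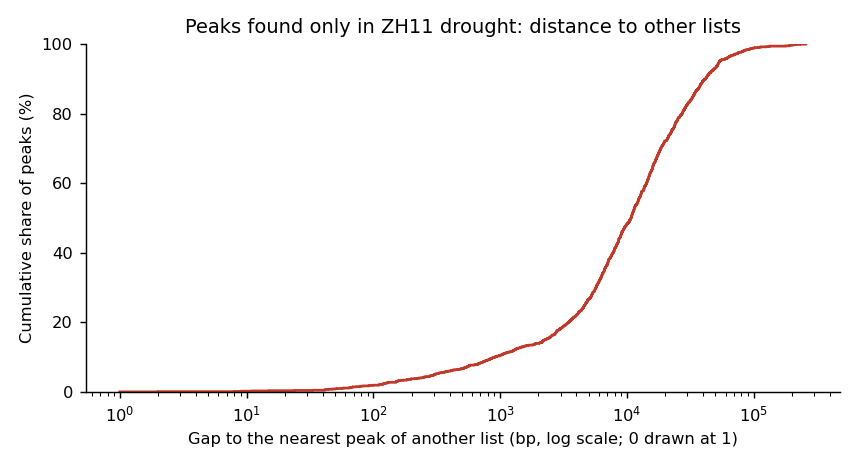
Cumulative share of the 1459 drought-only peaks (y axis, percent) by the gap in bp to the nearest peak of either other list (x axis, log scale). The curve stands at 6.72% at 500 bp and at 14.0% at 2000 bp, and its median is 10.8 kb.

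At the edge of the rule, membership turned on a few bases. The drought-only peak chr2:17416733-17418466, with 52 tags and a score of 57.3, directly adjoined a ZH11 normal peak of 38 tags and score 54.2, with 0 bp between them. At chr9:14017001-14020464, with 210 tags, an overexpressor peak of 197 tags lay 2 bp away. The next 3, on chromosomes 11, 11 and 8, had gaps of 8, 9 and 11 bp to ZH11 normal peaks. Just outside the rule, chr1:13010579-13011246 (18 tags, score 62.7) overlapped a ZH11 normal peak of 32 tags by 6 bp. The peaks at chr2:18676507-18676892 and chr5:9618708-9619025 overlapped overexpressor peaks by 8 and 9 bp, and chr2:2606307-2607675 and chr6:18956009-18956803 did so by 12 and 16 bp. The 52 drought-only peaks with an overexpressor peak as nearest neighbour within 500 bp had a median score of 56.2, and those neighbours had a median score of 82.9. The 46 with such a neighbour in ZH11 normal had a median score of 61.2, and those neighbours had 63.3.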

How the data were processed

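Trimmomatic 0.32 is named for all libraries in the submitters' processing notes. The same notes name TopHat2 2.0.8, a spliced aligner, for the RNA libraries, without its settings. For the ChIP libraries they name no aligner, and build and annotation are not given in the sources used here. Per the file headers, the authors called peaks with MACS 1.4.2 on each library by itself, with no control, a p-value limit of 1e-05, local background over 10000 bp and no more than 1 tag at a position. The deposited lists give tag counts, a score (the negative log10 of the p-value times 10), a fold enrichment (ratio to local background) and a summit for each peak. The deposited RNA tables give expected counts (read numbers in steps of 0.5) and FPKM by the authors, per the file headers. They served only for the level of OsbZIP23, as CPM of all reads in the library, and of 6 marker genes, as the deposited FPKM.

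Overlaps of 1 bp or more were counted with Python 3.11.15 (pandas 2.3.3, scipy 1.17.1) and matched bedtools 2.31.1; the overlap code was checked on simulated intervals. A peak's place is its summit. Chromosome spans are the highest peak end in the 3 lists. Intervals are exact (Clopper-Pearson, 95%) and cover counting error only. The regions named are the 10 with the most tags, the 10 with the highest fold enrichment, the 5 on each side of the rule and the densest run; the highest score was added after values were seen. The members and lists were chosen with earlier results of these data known. No genome or annotation of the build of the peaks was used, so genes and motifs at the peaks, and the planned test of drought calls among neighbouring genes, were not analysed here.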

Additional observations from a re-analysis of the deposited data

How the results depend on the processing

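The number of drought-only peaks, 1459, was 1255 to 1751 when the overlap had to reach 50 bp or 50% of the shorter peak, when peaks up to 500 or 2000 bp apart counted as shared, or when the overexpressor list alone was used (chosen after seeing the data), and 1110 with at least 20 tags. Under 3 settings the count moved further. With drought peaks of score 100 or more the count was 65, beside 716 that overlapped another list. These 65 had medians of 68 tags, fold enrichment 7.78, 1175 bp and score 114.8, and 12.3% in the middle part of the chromosomes. With all lists at score 100 or more the count was 202, beside 579 that overlapped another list. The drought peaks kept were those of the setting before, and only the other lists were shorter. The 202 had medians of 60 tags, fold enrichment 8.30, 1310.5 bp and score 118.2, and 16.4% in the middle part. Against the ZH11 normal list alone the count was 3508, beside 752 that overlapped that list. The 3508 had medians of 60 tags, fold enrichment 6.13, 1412 bp and score 64.6, and 16.7% in the middle part. With at least 20 tags, 2578 drought peaks overlapped another list, beside the 1110. The medians of the 1110 were 46 tags, fold enrichment 5.25 and 1362.5 bp. Against the overexpressor list alone the medians were fold enrichment 6.11 and score 60.6. The middle part held a higher share of drought-only than of other drought peaks under the remaining settings, but a lower one under those 3. The motif and gene-neighbour alternatives, with the DESeq2, total-count, filter and left-out-library fits, were not run, since no genome of the build of the peaks was used. No paired analysis was possible because each group had 1 library. A depth of 6050680 to 7136789 tags limits what a missing peak can show.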

Other observations

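Counts and heights of peaks found in 1 list alone differed between the lists. There were 1459 such peaks of 4260 in ZH11 drought, 8779 of 11611 in the overexpressor and 750 of 1738 in ZH11 normal. As a share of its list, ZH11 drought had the fewest and the overexpressor the most. The lists differ in size, so each had a different number of other peaks to overlap, the overexpressor list the fewest. The part of list size in this order was not tested. Median scores of the peaks found in 1 list alone were 59.7 in ZH11 drought, 85.2 in the overexpressor and 57.8 in ZH11 normal. Their median lengths were 1073 bp, 1121 bp and 1152.5 bp in the same order, and their median tags per peak 37, 63 and 31.5.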
